A study of Mus musculus with 6 samples.

Results

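The 78 cytosolic ribosomal protein genes described here, 31 of the small (40S) subunit and 47 of the large (60S) subunit, were measured in single cells of pancreatic tumours from 6 KPC mice. The members were selected on their names and on their total count: they are the genes named Rps or Rpl followed by a number, without pseudogenes and S6 kinase genes, that had at least 100 UMIs (unique molecular identifiers, which count captured transcripts) over the 6 libraries. Of 32285 features, 79 symbols followed this pattern. The members just inside the limit were Rpl39l with 166 UMIs and Rpl3l with 658, and Rpl10l, with 1 UMI, fell outside it. KPC mice carry the alleles KrasLSL.G12D/+, p53LSL.R172H/+ and Pdx1-Cretg/+: a Cre recombinase driven by the Pdx1 promoter, active in the pancreas, switches on both mutant alleles. All 6 mice carried them and had a tumour of 4 to 7 mm in diameter when assigned to a group. The 3 vehicle mice received corn oil and water. The 3 treated mice received trametinib, an inhibitor of the kinases MEK1 and MEK2, at 1 mg/kg and hydroxychloroquine, an inhibitor of lysosomal degradation, at 40 mg/kg, both by mouth. Tumours were collected after 24 h and each mouse gave 1 library. The ages of the mice are not given in the sources used here.

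A ribosome joins a small subunit, which reads the mRNA, to a large subunit, which forms the peptide bonds. Each subunit holds ribosomal RNA and a fixed set of proteins, most of them present once, so that their synthesis has to be balanced. Many of the mRNAs open with a 5′ terminal oligopyrimidine (TOP) tract, a C followed by further C or T bases, through which growth signals control their translation. A few members are paralogues of a core ribosomal protein.

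The libraries held 2144 to 10304 cells after filtering and 22996012 to 126645602 UMIs in all. Cells were named by marker genes, with the 78 members left out of the clustering. In all, 7 classes had at least 20 cells in each mouse: B lymphocytes, T and NK lymphocytes, endothelial cells, fibroblasts, macrophages and monocytes, neutrophils, and tumour and ductal epithelial cells (tumour cells below). They hold 31459 of 37002 cells, 4456 cells stayed unnamed, and each marker of a class was detected in it. Vehicle 1 stands apart: 25.7% to 25.9% of its barcodes opened with a run of 7 bases seen in another given library, against 99.8% to 100% among the other 5 libraries. Whole barcodes shared by 2 libraries numbered 0 to 24. The main differences of the members between groups are given with and without it. Comparisons between classes, and most values of single genes, paralogue pairs and gene lists, include it. Levels are in CPM (UMIs of a gene scaled to a common total per mouse and class), not divided by transcript length, so they are compared for 1 gene between classes and mice. Reads that match a processed pseudogene as well as the gene leave the member's level uncertain.

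Ribosomal protein mRNAs took very different shares of all UMIs in different cell classes. B lymphocytes were highest, with a median of 29.9% over the 6 mice (lowest 28.5%, highest 40.6%), and T and NK lymphocytes followed with 23.3% (21.2% to 36.7%). Tumour cells had 18.1% (16.1% to 29.5%). Macrophages had 15.7% (13.8% to 27.8%), fibroblasts 15.4% (12.6% to 22.7%) and endothelial cells 15.1% (12.5% to 26.1%). Neutrophils were far below, at 5.03% (3.74% to 10.9%). Within each mouse B lymphocytes were above and neutrophils below every other class, in 6 of 6 mice. Of the 21 pairs of classes, 16 differed (two-sided exact sign-flip test over 6 mice, p = 0.0312, the smallest that 6 mice allow, adjusted p = 0.041 over the 21 pairs). Tumour cells did not differ by this test from T and NK lymphocytes (exact test, adjusted p = 0.0772) or from macrophages (adjusted p = 0.104), nor did the pairs among endothelial cells, fibroblasts and macrophages (adjusted p = 0.104 to 0.344). Neutrophils also had the shallowest cells, with a median of 808 to 2143 UMIs by mouse, and the part of depth in their low share was not tested. Among cells of 2000 to 10000 UMIs, tumour cells missed the threshold against endothelial cells (1.28 percentage points in size, adjusted p = 0.75 by the exact test) and fibroblasts (adjusted p = 0.188). Too few B lymphocytes, T and NK lymphocytes and neutrophils were left there, so the adjustment ran over fewer pairs. A pair at the smallest p of 0.0312 then misses the threshold unless most pairs reach that p. The test therefore cannot decide whether these differences depend on depth.

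**Figure D1:**
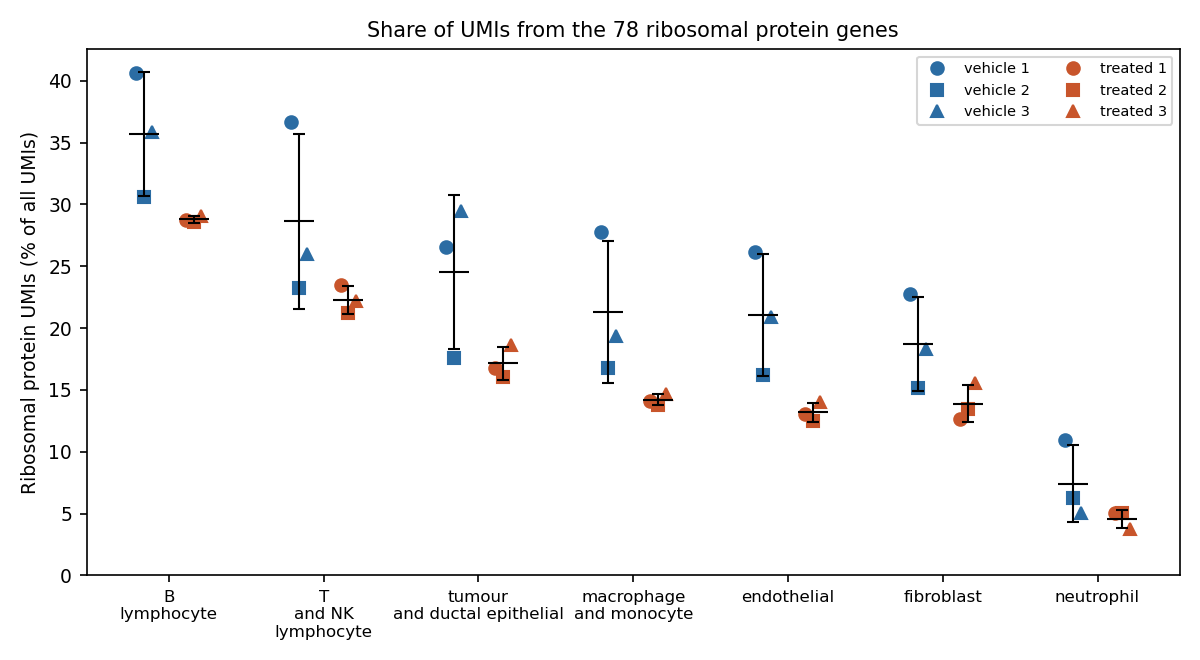
Share of all UMIs that came from the 78 ribosomal protein genes (vertical axis, %), by cell class and mouse, with 1 point per mouse and the mean ± SD of 3 mice per group. B lymphocytes lie between 28.5% and 40.6% and neutrophils between 3.74% and 10.9%, and vehicle 1 is the highest mouse in each class except tumour cells.

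Treated mice had a lower mean ribosomal protein share than vehicle mice in 7 of 7 classes, and no class passed the test. In endothelial cells the share was 26.1%, 16.2% and 20.9% in vehicle 1 to 3 and 13.04%, 12.5% and 14.01% in treated 1 to 3. All treated endothelial values lie below all vehicle values, with means of 13.2% ± 0.775 and 21.1% ± 4.96 (SD, n = 3 mice each). Macrophages had 27.8%, 16.8% and 19.4% in vehicle and 14.1%, 13.8% and 14.7% in treated mice, again without overlap. B lymphocytes had 40.6%, 30.6% and 35.8% against 28.8%, 28.5% and 29.1%, and neutrophils 10.9%, 6.29% and 5.03% against 5.02%, 5.005% and 3.74%. Neither of these overlapped, although vehicle 3 and treated 1 nearly met in neutrophils, and the B lymphocytes of treated 1 and treated 2 were only 25 and 20 cells. In tumour cells the vehicle values of 26.6%, 17.6% and 29.5% overlapped the treated values of 16.8%, 16.1% and 18.7%. Fibroblasts (22.7%, 15.2% and 18.3% against 12.6%, 13.4% and 15.6%) and T and NK lymphocytes (36.7%, 23.2% and 26.0% against 23.5%, 21.2% and 22.2%) overlapped too. With 3 mice against 3, the two-sided exact permutation test cannot go below p = 0.1, and its adjusted p over 7 classes was 0.175 in the 4 classes without overlap and 0.2 in the others. In these sums fewer members per cell and a larger total of other RNA cannot be told apart.

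These differences were smaller without vehicle 1. Without it the treated minus vehicle difference went from −7.12 to −3.88 percentage points in macrophages, from −2.82 to −1.07 in neutrophils, from −6.35 to −2.33 in T and NK lymphocytes and from −4.86 to −2.87 in fibroblasts. In B lymphocytes it went from −6.89 to −4.42, in endothelial cells from −7.89 to −5.37 and in tumour cells from −7.38 to −6.37. The direction and the 4 classes without overlap were the same. In tumour cells, leaving out vehicle 3 moved the difference to −4.91.

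Other readings moved with the groups. AY036118 and Gm42418, features that take reads from ribosomal RNA, were higher in each treated mouse than in each vehicle mouse in 7 of 7 classes. They made up 0.0418%, 0.76% and 1.15% of endothelial UMIs in vehicle 1 to 3 and 7.42%, 9.74% and 4.71% in treated 1 to 3. With these features, Malat1 and mitochondrial genes left out of the total, the ribosomal protein difference was −6.81 percentage points in endothelial cells, −6.82 in tumour cells, −6.49 in macrophages, −4.23 in fibroblasts, −4.08 in T and NK lymphocytes, −3.98 in B lymphocytes and −2.48 in neutrophils. Groups then overlapped in B lymphocytes and neutrophils as well. Cells were deeper in each treated mouse in 4 classes. Their median UMIs were 5898 to 8982 against 2389 to 5261 in endothelial cells, 3248 to 3412 against 1201 to 1943 in B lymphocytes, 3156 to 3278 against 1170 to 1740 in T and NK lymphocytes, and 1612 to 2143 against 808 to 1532 in neutrophils. Markers of tumour cells, 12 of 12 detected, summed to 99.8 to 502 CPM in vehicle and 76.7 to 131 CPM in treated endothelial cells, with 4 of 12 lower in each treated mouse. Fibroblast markers, 8 of 8 detected, summed to 125 to 342 against 100 to 112 CPM there, mesothelial markers, 6 of 7 detected, to 5.72 to 58.9 against 1.14 to 2.32 CPM, and B lymphocyte markers, 6 of 6 detected, to 3.82 to 12.5 against 1.14 to 2.79 CPM. In fibroblasts mesothelial markers were higher in treated mice, at 186 to 344 against 97.0 to 116 CPM, with 5 of 7 higher in each treated mouse, and neutrophil markers were lower, at 18.2 to 66.7 against 78 to 620 CPM. Conventional dendritic markers were lower in treated fibroblasts too (94.7 to 105 against 137 to 206 CPM). The fibroblasts' own 8 markers summed to 26726 to 37826 CPM in vehicle and 38760 to 41079 CPM in treated mice, also without overlap. In T and NK lymphocytes plasmacytoid dendritic markers, 5 of 6 detected, summed to 26.1 to 155 against 156 to 299 CPM. Endothelial markers, 9 of 9 detected, summed there to 84.8 to 88.3 against 60.7 to 81.7 CPM. In macrophages the sets that did not overlap summed to at most 23.5 CPM, and in B lymphocytes, neutrophils and tumour cells the groups overlapped for the markers of every other class. The part of these readings in the ribosomal protein difference was not tested.

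Gene by gene, 0 members passed the edgeR quasi-likelihood test between groups in each of the 7 classes (Benjamini-Hochberg adjusted p under 0.05 over all genes of a class), and of all genes tested 0.97% passed in endothelial cells, 0.119% in T and NK lymphocytes (0.0992% lower in treated mice) and 0% in the other 5. Without vehicle 1 edgeR called 3 of 76 members in endothelial cells, a share below the 5.92% of all genes, and without vehicle 2 it called 11 of 76, above the 1.2% of all genes. At an unadjusted edgeR p under 0.05, the members numbered 59 of 76 in endothelial cells (19.4% of all genes), 34 of 76 in tumour cells (11.7%), 32 of 77 in neutrophils (4.33%), 25 of 76 in fibroblasts (15.9%), 7 of 77 in macrophages (10.3%), 6 of 76 in T and NK lymphocytes (3.95%) and 6 of 75 in B lymphocytes (2.58%). In macrophages that count is no higher than the background. Leaving out 1 mouse moved these counts to 25 to 69 in endothelial cells, 2 to 57 in tumour cells, 5 to 55 in neutrophils, 0 to 54 in fibroblasts, 0 to 43 in macrophages, 0 to 24 in T and NK lymphocytes and 1 to 18 in B lymphocytes. In each class the count was highest without vehicle 2 and lowest without treated 1 or treated 2. DESeq2 called 44 of the 75 members with an adjusted p in endothelial cells, where it called 14.1% of all genes with one. It called 2 of 76 members in fibroblasts (2.01% of all genes) and 1 of 77 in tumour cells (2.55%), both near or below the background. No member was called by DESeq2 in macrophages (1.91% of all genes), neutrophils (0.0804%), T and NK lymphocytes (0.0745%) or B lymphocytes (0.00635%). The fitted log2 fold change, treated over vehicle, was negative for each tested member in endothelial cells, fibroblasts, macrophages, neutrophils and tumour cells, for 73 of 76 in T and NK lymphocytes and for 72 of 75 in B lymphocytes. With library totals in place of edgeR's TMM scaling the negative ones were 75 of 77 in neutrophils, 74 of 76 in tumour cells and 69 of 75 in B lymphocytes.

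The members' median log2 fold change was −0.73 in endothelial cells (0.02 over all genes), −0.90 in tumour cells (−0.06), −0.61 in fibroblasts (0.01), −0.55 in macrophages (0.00), −1.18 in neutrophils (−0.03), −0.34 in T and NK lymphocytes (0.01) and −0.34 in B lymphocytes (−0.01). Small and large subunit members had close medians: −0.78 and −0.71 in endothelial cells, −0.61 and −0.57 in fibroblasts, −0.51 and −0.56 in macrophages, −1.17 and −1.19 in neutrophils. Tumour cells had −0.83 for small and −1.02 for large members, and −0.84 and −0.88 without vehicle 1, where neutrophils had −0.27 and −0.40. Without vehicle 1 the members' median was −0.59 in endothelial cells, −0.85 in tumour cells, −0.40 in fibroblasts, −0.19 in macrophages, −0.34 in neutrophils, −0.09 in T and NK lymphocytes and −0.18 in B lymphocytes, and without vehicle 3 it was −0.64 in tumour cells.

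The 3 treated mice were all below the 3 vehicle mice in CPM for 56 of 76 members in endothelial cells, where 9.7% of all tested genes were. The same held for 46 of 77 in macrophages (11% of all genes), 30 of 77 in neutrophils (1.86%), 22 of 76 in fibroblasts (5.73%), 15 of 76 in tumour cells (3.3%), 14 of 76 in T and NK lymphocytes (5.66%) and 14 of 75 in B lymphocytes (5.01%). Without vehicle 1 the counts were 58 in endothelial cells (18.4% of all genes), 48 in macrophages (25.2%), 30 in neutrophils (6.86%), 26 in fibroblasts (16.5%), 19 in tumour cells (6.62%), 15 in T and NK lymphocytes (15.2%) and 25 in B lymphocytes (11.9%). In T and NK lymphocytes that count, 15 of 76, lies near the background. In the opposite direction, with the 3 treated mice all above the 3 vehicle mice, 0 members were found in each class, where 17.5% of all genes were in endothelial cells, 5.87% in macrophages, 5.89% in neutrophils, 19.8% in fibroblasts, 20.5% in tumour cells, 4.6% in T and NK lymphocytes and 4.34% in B lymphocytes. Members share the same libraries, so these counts are not independent observations.

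**Figure D2:**
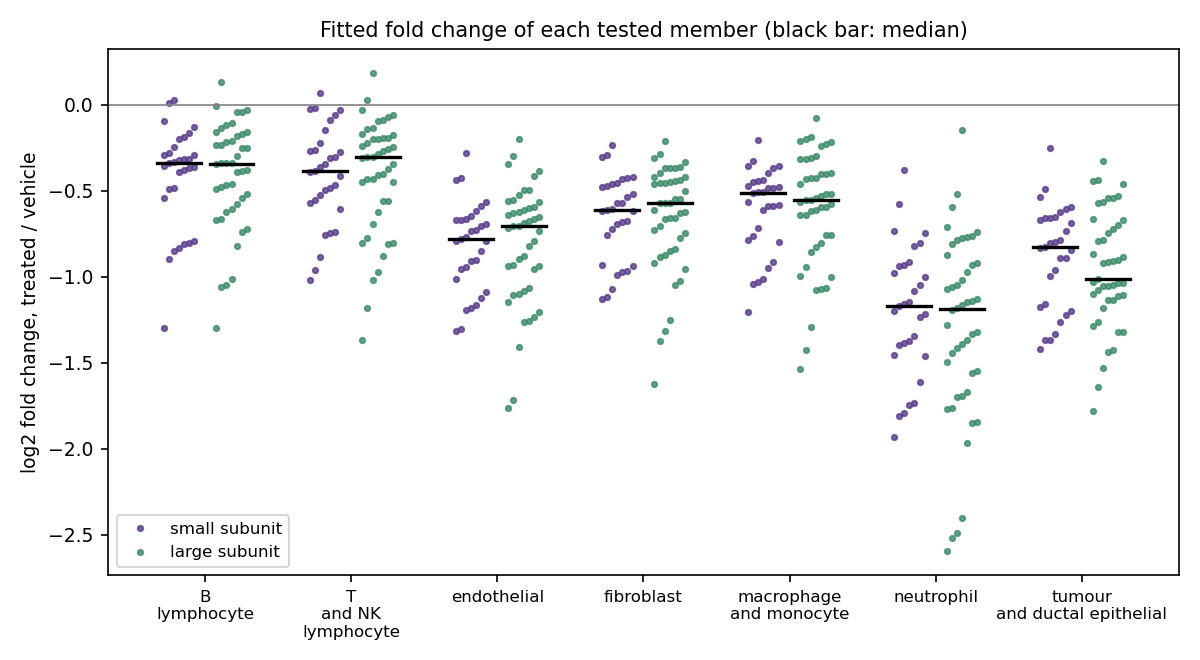
Fitted log2 fold change (treated over vehicle, edgeR; vertical axis) of each tested small and large subunit member in the 7 cell classes. Nearly all values lie below 0, and the small and large medians are close, −0.78 and −0.71 in endothelial cells and −0.83 and −1.02 in tumour cells.

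The member with the smallest p in endothelial cells was Rpl10a, a protein of the large subunit's L1 stalk (chr17:28328471-28331033, mm10). It had 2164, 1602 and 1964 CPM in vehicle 1 to 3 and 1033, 865 and 1065 CPM in treated 1 to 3. The groups lie well apart and vehicle 1 is not alone at the top (log2 fold change −1.07 ± 0.24, SE, edgeR adjusted p = 0.0669). Rpl14, another large subunit protein, had 2570, 1483 and 1522 CPM against 803, 805 and 1008 CPM (−1.20 ± 0.29, edgeR adjusted p = 0.0742). Of the small subunit, Rps12 had 3612, 3326 and 3990 CPM against 1666, 1929 and 2545 CPM (−0.94 ± 0.26, edgeR adjusted p = 0.0942). These 3 genes were chosen for their small p after the values were seen. In each, the highest treated value stayed below the lowest vehicle value.

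The balance between the subunits was compared as the percentage of ribosomal protein UMIs that came from small subunit members. It varied little, from 43.8% to 52.8% over all classes and mice, but 18 of the 21 pairs of classes kept their order in 6 of 6 mice. Neutrophils had 49.8% ± 1.98 (SD, n = 6 mice), B lymphocytes 48.8% ± 0.819, macrophages 47.1% ± 0.292, T and NK lymphocytes 46.7% ± 0.232, endothelial cells 46.1% ± 0.404, fibroblasts 45.2% ± 0.501 and tumour cells 44.7% ± 0.702. Of the 21 pairs, 18 differed (two-sided exact sign-flip test, p = 0.0312, adjusted p = 0.0365). B lymphocytes stood 4.09 percentage points and neutrophils 5.04 points above tumour cells, in 6 of 6 mice each. Even the 0.432 points between macrophages and T and NK lymphocytes held in 6 of 6 mice. Neutrophils did not differ by the exact test from B lymphocytes (adjusted p = 0.219) or macrophages (adjusted p = 0.0691), nor fibroblasts from tumour cells (adjusted p = 0.131).

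**Figure D3:**
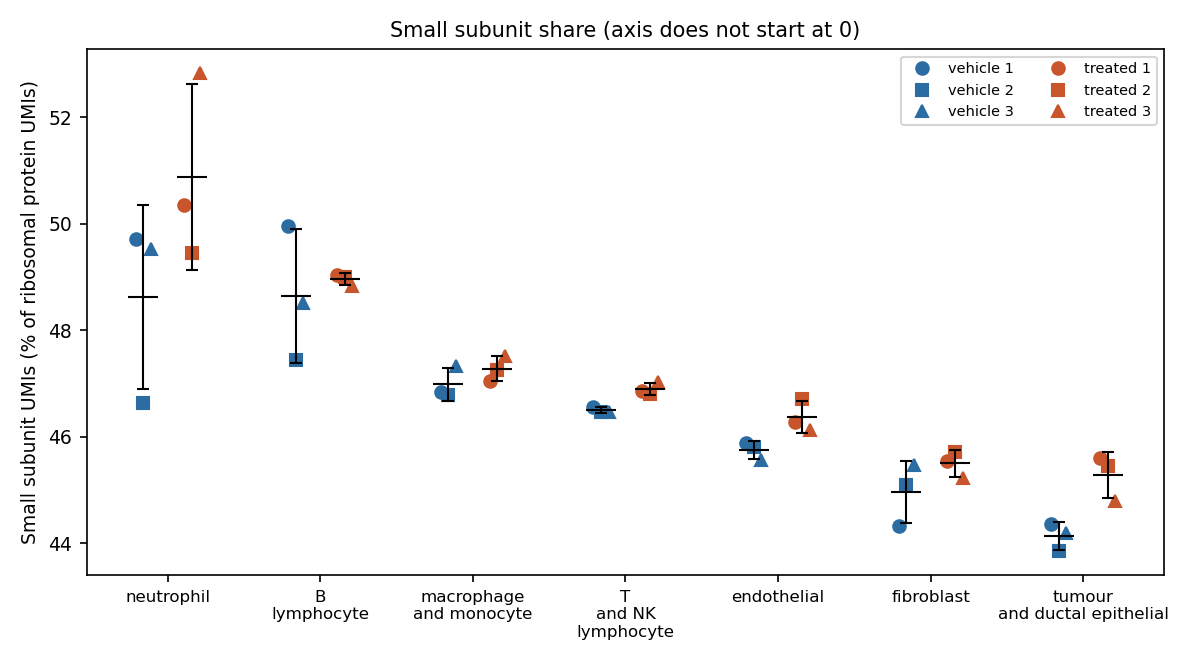
Small subunit share of ribosomal protein UMIs (vertical axis, %) by cell class and mouse, with 1 point per mouse and the mean ± SD of 3 mice per group; the axis does not start at 0. Class means run from 49.8% in neutrophils to 44.7% in tumour cells, and the treated tumour values (44.8% to 45.6%) lie above the vehicle ones (43.8% to 44.4%).

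Some single members differed more between classes than the summed share. Rps9, a core protein of the small subunit, made up 5.19% ± 2.01 of ribosomal protein UMIs in neutrophils and 1.56% ± 0.341 in tumour cells (SD, n = 6), higher in neutrophils in 6 of 6 mice. Rps29, Rps27 and Rps27a were higher in neutrophils than in tumour cells by 1.87, 1.44 and 1.24 percentage points, also in 6 of 6 mice. In B lymphocytes Rps27 made up 2.63% ± 1.28 against 1.15% ± 0.835 in tumour cells, and Rps24 3.41% ± 0.371 against 2.41% ± 0.335. Vehicle 1 had the highest Rps27 level in both classes, 21023 CPM in B lymphocytes and 7515 CPM in tumour cells. Of the large subunit, Rpl32 made up 2.74% ± 0.382 in tumour cells and 1.65% ± 0.335 in neutrophils. The genes of this paragraph other than Rps9, Rps27 and Rps29 were chosen after their values were seen. With each member weighted equally on the log2 scale, the rare Rpl3l and Rpl39l included, no pair of classes passed the exact test (smallest adjusted p = 0.438) and 9 of 21 pairs changed sign. Over the 75 members of at least 50 CPM, a limit chosen after seeing the data, 16 pairs passed, and neutrophils stood 0.31 above tumour cells in mean log2 CPM of small minus large members (adjusted p = 0.041, exact test).

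The small subunit share had a higher mean in treated than in vehicle mice in 7 of 7 classes, and none passed the test. Tumour cells had 44.4%, 43.8% and 44.2% in vehicle 1 to 3 and 45.6%, 45.5% and 44.8% in treated 1 to 3. Endothelial cells had 45.9%, 45.8% and 45.6% against 46.3%, 46.7% and 46.1%. Groups did not overlap in these 2 classes or in T and NK lymphocytes, with differences of 1.14, 0.619 and 0.398 percentage points (exact permutation p = 0.1, adjusted p = 0.233). Groups overlapped in fibroblasts (0.544 points), macrophages (0.293), B lymphocytes (0.319) and neutrophils (2.25). Without vehicle 1 the difference was 0.978 points in B lymphocytes, whose groups then did not overlap, and 0.225 in fibroblasts. Without the 3 most abundant members of each subunit the sign changed in B lymphocytes, T and NK lymphocytes, endothelial cells, fibroblasts and macrophages. In tumour cells and neutrophils it changed under none of the alternatives run.

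Paralogues differed most between cell classes. Rps27l (chr9:66946086-66949516), a small subunit paralogue known as a p53 target, took the smallest share of its pair in lymphocytes. It made up 1.09% ± 0.538 of the summed CPM of Rps27l and its partner Rps27 in B lymphocytes and 4.26% ± 0.98 in T and NK lymphocytes (SD, n = 6). The share was 11.9% ± 3.89 in neutrophils, 13.3% ± 5.08 in endothelial cells, 16.7% ± 4.44 in macrophages, 20.7% ± 6.53 in fibroblasts and 20.8% ± 6.30 in tumour cells. The highest value was 1.97% in B lymphocytes and 5.91% in T and NK lymphocytes, the latter close to the lowest neutrophil value of 6.01%. The other 5 classes overlapped. Rps27 (chr3:90212522-90213651) had its highest mean, 8869 CPM, in B lymphocytes, but 21023 CPM in vehicle 1 there against 5331 to 7346 CPM in the other 5 mice.

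By treatment, Rps27l had 474, 307 and 463 CPM in vehicle and 211, 228 and 222 CPM in treated endothelial cells, with no overlap (log2 fold change −1.01 ± 0.25, edgeR adjusted p = 0.0758). In B lymphocytes it had 213, 107 and 99.3 CPM against 67.5, 26.8 and 49.6 CPM (−1.30 ± 0.44, edgeR adjusted p = 0.9996), also without overlap, but the treated values rest on 6, 2 and 68 UMIs. Macrophages, neutrophils, tumour cells and T and NK lymphocytes overlapped in Rps27l.

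The windows around the start of this pair are shown because their TOP-like runs differ in length. Each is from RefSeq (GRCm38.p6), on the gene's strand, with 45 bases before the start and 15 from it on. Capitals mark a run of at least 5 C or T bases that opens with C within 5 bases of the start, whatever the base before it.
Rps27, chr3:90213634-90213693, minus strand: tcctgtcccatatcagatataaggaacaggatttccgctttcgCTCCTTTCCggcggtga
Rps27l, chr9:66946041-66946100, plus strand: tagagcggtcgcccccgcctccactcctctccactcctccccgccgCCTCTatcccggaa
The run has 9 bases in Rps27 and 5 in Rps27l. Of the 59 members matched by symbol in the RefSeq table, 28 (47.5%) had such a run, beside 19.7% of all 27025 genes. A run opening exactly at the start was found in 20.3% of members and 3.01% of all genes. In the 300 bases from 250 before the start to 50 from it on, searched on both strands, the ETS family core CCGGAAG was found in 40.7% of members (43.5% of small, 38.9% of large) and 9.93% of all genes. The YY1 motif AAGATGGC, whose first 3 letters can overlap the end of CCGGAAG, was found in 10.2% and 3.19%, the GC box GGGCGG in 59.3% and 38.2%, and the TATA box TATAAA in 10.2% and 15.7%. Among those not matched were Rpl17, Rpl21, Rpl23a, Rpl29, Rpl3, Rpl30, Rpl32, Rpl36, Rpl7, Rpl8, Rps14, Rps20, Rps27a and Rps29.

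Rpl22l1 (chr3:28805436-28807424), the paralogue of the RNA-binding large subunit protein Rpl22, had the smallest p of the members in both tumour cells and neutrophils. Tumour cells had 1792, 910 and 1175 CPM in vehicle 1 to 3 and 422, 355 and 799 CPM in treated 1 to 3. Each treated value is below each vehicle value, and treated 3 lies nearest to the vehicle mice (log2 fold change −1.64 ± 0.44, edgeR adjusted p = 0.399). Rpl22 in the same cells had 1268, 1242 and 1910 CPM against 1656, 1624 and 1298 CPM, which overlap. Its log2 fold change was −0.33 ± 0.35 with TMM scaling and 0.05 with library totals, so its direction depends on the scaling. Rpl22l1 made up 46.3% of the summed CPM of the pair in vehicle and 25.5% in treated tumour cells on average. This share ran from 17.9% to 58.6% over the 6 mice, and by the values above it was nearly the same in treated 3 as in vehicle 3. Neutrophils had 278, 173 and 74.2 CPM of Rpl22l1 against 49.6, 28.3 and 48.1 CPM (−2.49 ± 0.65, edgeR adjusted p = 0.965). Groups did not overlap in endothelial cells (−0.73 ± 0.24) and fibroblasts (−0.66 ± 0.25) and overlapped in macrophages (−0.20 ± 0.30) and both lymphocyte classes. Over the classes the share of the pair was highest in fibroblasts, 44.6% ± 4.12, and lowest in neutrophils, 18.8% ± 10.0 (SD, n = 6).
Rpl22l1, chr3:28805463-28805522, plus strand: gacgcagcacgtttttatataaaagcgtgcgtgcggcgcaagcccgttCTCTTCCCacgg
Rpl22, chr4:152325681-152325740, plus strand: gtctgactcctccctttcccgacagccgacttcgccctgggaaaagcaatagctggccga
These windows, shown to set this pair beside the first, differ by the same rule: Rpl22l1 has a run of 8 bases that opens at base 4 from the start, and Rpl22 has none. The RefSeq start lies 72 bases from the GENCODE gene start in Rpl22l1 and 16 bases from it in Rpl22. Runs at the GENCODE starts were not searched, so the lack of one in Rpl22 holds for its RefSeq start only.

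Rps9 (chr7:3703993-3706897) took a larger share of member UMIs in neutrophils than in the other classes, while its level there was not high. Neutrophils had 3476, 2248 and 3195 CPM of Rps9 in vehicle and 2372, 2354 and 3228 CPM in treated mice, overlapping groups. Tumour cells had 2260 to 4335 CPM, T and NK lymphocytes 3444 to 4746 CPM and B lymphocytes 4799 to 6944 CPM. The log2 share of Rps9 among member UMIs was 1.25 above the mean of the 7 classes in neutrophils. Rpl3, a large subunit protein near the peptidyl transferase centre, was 0.96 below that mean there. Neutrophils had 521, 484 and 240 CPM of Rpl3 in vehicle and 185, 201 and 132 CPM in treated mice, without overlap (log2 fold change −1.67 ± 0.51, edgeR adjusted p = 0.965). In the other 6 classes its log2 fold change lay between −0.44 and 0.18. The 8 neutrophil markers summed to 274679, 18916.5 and 117142 CPM in the neutrophils of vehicle 1 to 3. They summed to 60724, 33217 and 130080 CPM in those of treated 1 to 3. Vehicle 2, lowest in that sum, had the highest sum of tumour markers, 2889 CPM against 119 to 568 CPM in the other mice. The part of these marker sums in the neutrophil values was not tested.
Rps9, chr7:3703996-3704055, plus strand: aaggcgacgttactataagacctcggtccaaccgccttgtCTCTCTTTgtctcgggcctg
The run of Rps9, shown for the gene that leads the small share in neutrophils, has 8 bases, at a RefSeq start 48 bases from the GENCODE one.

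Rpl3l (chr17:24727820-24736143), the paralogue of Rpl3 known from heart and skeletal muscle, was read mostly in myeloid cells. It had 224 UMIs in neutrophils and 282 in macrophages, beside 38 in tumour cells and 0 to 5 in each other class. Neutrophils had 34.4, 10.3 and 37.5 CPM in vehicle 1 to 3 and 24.8, 14.2 and 25.8 CPM in treated 1 to 3, which overlap. Of 4813 neutrophils, 201 (4.18%, exact 95% interval 3.63% to 4.78%, counting error only) had a UMI at a median depth of 1153 UMIs. Of 10726 tumour cells, 36 (0.336%, 0.235% to 0.464%) had one, at a median depth of 21476 UMIs. The share of cells with a UMI was higher in neutrophils than in tumour cells in 6 of 6 mice, from 0.942% against 0.206% in vehicle 2 to 8.40% against 2.61% in vehicle 1. No T or NK lymphocyte of 1149 had a UMI, where 3 UMIs over the class would be 0.918 CPM. Rpl39l, the paralogue of Rpl39 known from the testis, had at most 44 UMIs in a class and was tested in none. Rpl7l1 had 0 to 97.8 CPM by class and mouse. Rps4l was not analysed here.

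**Figure D4:**
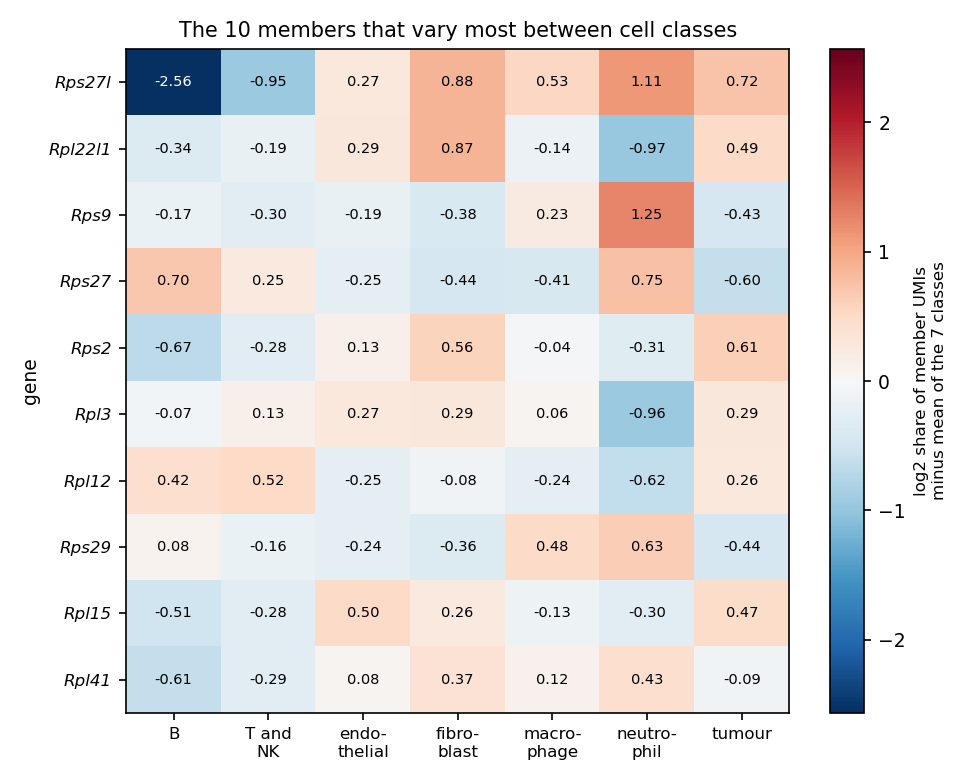
The 10 members of at least 50 CPM whose share of ribosomal protein UMIs varied most between cell classes, as the log2 share minus the gene's mean over the 7 classes (each class the mean of 6 mice). Rps27l is lowest in B lymphocytes (−2.56), Rps9 stands out in neutrophils (1.25), and Rps2 is high in tumour cells (0.61) and low in B lymphocytes (−0.67).

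Rps2, a small subunit protein at the mRNA entry, was high in tumour cells and fibroblasts, 0.61 and 0.56 above the mean of classes in log2 share. Tumour cells had 4339, 2488 and 4443 CPM of Rps2 in vehicle and 2132, 1703 and 2244 CPM in treated mice, without overlap (log2 fold change −1.26 ± 0.37, edgeR adjusted p = 0.406). Rpl12, of the stalk base, was high in B (0.42) and in T and NK lymphocytes (0.52) and low in neutrophils (−0.62). Rpl15 was high in endothelial (0.50) and tumour cells (0.47) and low in B lymphocytes (−0.51). Rpl36 had the lowest fold change in tumour cells, with 3726, 1739 and 4249 CPM against 966, 859 and 1868 CPM (−1.78 ± 0.52, edgeR adjusted p = 0.406), and treated 3 overlapped vehicle 2. Rps3, a small subunit protein that also acts in DNA repair, had the highest fold change there, with 2763, 2650 and 3300 CPM against 3273, 3066 and 3072 CPM. That fold change was −0.25 ± 0.29 with TMM scaling and 0.11 with library totals, the direction of the CPM values.

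The mix of members differed between mice about as much as between classes. Over the 75 members of at least 50 CPM, the median SD of a gene's log2 share of member UMIs was 0.22 between mice, 0.13 between mice without vehicle 1, and 0.21 between classes. In vehicle 1, 13 members had a higher share than in every other mouse in all 7 classes and 14 a lower one. Rpl29, a large subunit protein that also binds heparin, varied most, with 1009 CPM in macrophages of vehicle 1 and 139 to 215 CPM in those of the other 5 mice. Its share in vehicle 1 was 3.26 times that of the others. The ratio was 2.81 for Rpl31, 2.34 for Rps27, 2.09 for Rps28 and 1.92 for Rpl41, and 0.51 for Rpl5. The 13 members highest in vehicle 1 had a median annotated transcript length of 494 bases and the 14 lowest ones 761.5 bases. Across the 75 members, which share these libraries, log2 length and the vehicle 1 offset had a Pearson correlation of −0.51 and a Spearman correlation of −0.47. Vehicle 1 also stood apart in single levels: in macrophages Rpl31 had 3069, 607 and 1024 CPM in vehicle and 502, 532 and 713 CPM in treated mice, and in tumour cells Rps27 had 7515, 1359 and 1575 CPM against 1513, 1574 and 1697 CPM.

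**Figure D5:**
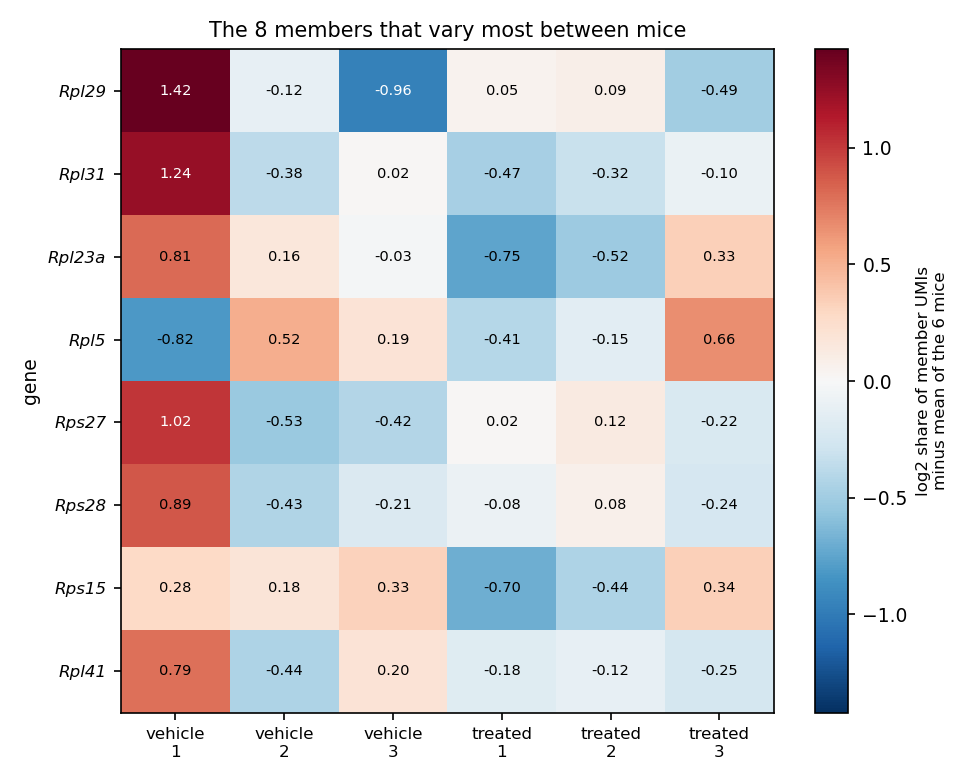
The 8 members of at least 50 CPM whose share of ribosomal protein UMIs varied most between mice, as the log2 share minus the gene's mean over the 6 mice (each mouse the mean of 7 classes). Vehicle 1 is high for Rpl29 (1.42) and Rpl31 (1.24) and low for Rpl5 (−0.82), and treated 1 is low for Rpl23a (−0.75) and Rps15 (−0.70).

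A further set of members set treated 1 and treated 2 apart from treated 3. Rpl23a, a large subunit protein at the exit of the peptide tunnel, had 663, 726 and 1411 CPM in tumour cells of treated 1 to 3, beside 2903, 1290 and 1749 CPM in vehicle 1 to 3. Rps15, of the small subunit's head, had 791, 963 and 1638 CPM in treated macrophages and 2730, 1678 and 2281 CPM in vehicle ones. For both genes the shares in treated 1 and 2 were the lowest of the 6 mice in 7 of 7 classes. The share in treated 3 was 1.96 times that in treated 1 and 2 for Rpl23a, 1.92 times for Rpl5, 1.88 times for Rps15, 1.82 times for Rpl13a and 1.64 times for Rps25, above both in 7 of 7 classes. Treated 1 and 2 were the closest of the 15 pairs of mice, with an SD of the log2 ratio of 0.12 over the 75 members. The next pair, vehicle 2 and treated 3, had 0.21, and pairs with vehicle 1 had 0.56 to 0.67.

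None of the members with known duties outside the ribosome passed the edgeR test. Rpl5 and Rpl11, which bind and restrain Mdm2 when ribosome assembly fails, had log2 fold changes of −1.12 and −0.54 in tumour cells and −0.35 and −0.65 in endothelial cells. Rps6, the substrate of the S6 kinases, had −0.89 and −0.90 in these 2 classes, without overlap in either. Rpl26, known to promote p53 translation, had −1.26 and −0.67, also without overlap. Rps19 and Rps14, both tied to inherited or acquired anaemia, had −0.49 and −0.84 in tumour cells and −0.91 and −0.79 in endothelial cells. Rpl13a, known for silencing inflammatory mRNAs, had −0.76 in macrophages, and Rpl38, known for the translation of Hox mRNAs, −1.07, both with overlapping groups.

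Other genes of the translation machinery were read from the same fits. The 8 ribosome components outside the naming pattern had a median log2 fold change of −0.94 in tumour and −0.90 in endothelial cells, and 0 of 8 passed in each class. The 12 translation factors, several of them TOP mRNAs, had medians nearer to 0 than the members: −0.42 in tumour cells, −0.25 in endothelial cells, −0.08 in macrophages, −0.64 in neutrophils (12 of 12 negative), −0.19 in fibroblasts, −0.06 in B lymphocytes and 0.07 in T and NK lymphocytes, with 0 of 12 passing in each class. With library totals these medians were −0.05 in tumour cells, −0.14 in endothelial cells, −0.11 in macrophages, −0.38 in neutrophils and −0.01 in fibroblasts. They were −0.04 in B lymphocytes and 0.04 in T and NK lymphocytes. Eef1a1, which brings tRNAs to the ribosome, had 5592, 4947 and 5070 CPM in vehicle and 5310, 5160 and 5491 CPM in treated tumour cells. These groups overlap.

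Of the 78 mitochondrial ribosomal protein genes, 77 had a negative fold change in endothelial cells and 2 passed, both lower in treated mice, where 0.841% of all genes were lower. Mrpl42 had 93.6, 115 and 87.3 CPM against 60.9, 42.9 and 52.0 CPM (log2 fold change −1.03 ± 0.20, edgeR adjusted p = 0.0399). Mrpl12 had 137, 121 and 134 CPM against 68.9, 77.7 and 65.5 CPM (−0.97 ± 0.19, edgeR adjusted p = 0.0408). Both calls were lost without treated 1, treated 2, treated 3 or vehicle 3 and with library totals, and that of Mrpl42 also without vehicle 2. Both were lost as well with treated 1 and treated 2 summed as 1 sample and with a replicate block. The same held with totals that left out the members and among cells of 2000 to 10000 UMIs. DESeq2 gave Mrpl42 no adjusted p. Over the alternatives the edgeR adjusted p ranged from 0.00396 to 0.251 for Mrpl42 and from 0.00685 to 0.201 for Mrpl12. The list's median was −0.62 in endothelial and −0.56 in tumour cells, or −0.52 and −0.20 with library totals, and no gene of it passed in the other 6 classes. Of the 10 p53 target genes, 0 passed in each class, with medians of −0.16 over 10 tested in tumour cells (0.18 with library totals) and 0.36 over 9 tested in macrophages.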

How the data were processed

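Each of the 6 libraries was deposited as a matrix of unnormalized UMI counts, and the submitters' processing notes name Cell Ranger 5.0.1 and the build mm10. The library chemistry and annotation release are not given in the sources used here. Barcodes with at least 500 UMIs and 250 genes and at most 20% mitochondrial UMIs were kept (39928 of 44819). Scrublet's own threshold called too few doublets to be used, so the highest-scoring barcodes of each library were left out, at 0.8% per 1000 barcodes (2926 in all).

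Cells were clustered without the members (scanpy 1.11.5, 2000 variable genes, 30 components, resolution 1) into 35 clusters and 204 sub-clusters. A sub-cluster took the name of 1 of 17 marker sets where at least 3 of its markers had 50 CPM and were 4-fold above the median sub-cluster, and stayed unnamed where its 10 leading genes went against that name. Counts were summed per mouse and class and tested with edgeR 4.0.16 (TMM, filterByExpr, robust quasi-likelihood fit), adjusted over all genes of a class, with DESeq2 1.42.0 as an alternative. Shares were compared by exact permutation between groups and by exact sign flips of within-mouse differences between classes.

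The fits were tested on simulated data with genes set to differ 4-fold. They recovered 21% of these genes in tumour cells and 26% in neutrophils. In the other classes they recovered 86.5% (macrophages) to 99% (endothelial cells). In tumour cells and neutrophils a member that was not called may therefore still differ by that much. Alternatives were DESeq2, no count filter, other totals, other cell filters, each mouse left out, a replicate block and other weights per gene. Genes were named by rule: members farthest from the members' median fold change, paralogue pairs, members with roles outside the ribosome, the 10 varying most between classes and between mice, and genes of the pathway lists that passed or were most abundant; exceptions are marked. The members, lists and rules were chosen with earlier results of these data known. Coordinates are from GENCODE M21 by gene identifier. A few genes are not reported here.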

Additional observations from a re-analysis of the deposited data

How the results depend on the processing

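The members called by edgeR, 0 in each class, became 44 in endothelial cells, 2 in fibroblasts and 1 in tumour cells with DESeq2 (14.1%, 2.01% and 2.55% of all genes with an adjusted p), and 13 in endothelial cells (3.29% of all genes) and 4 in neutrophils (0.495%) without a filter on low counts; the cause was not tested. Leaving out 1 mouse gave 0 to 11 called members in endothelial cells (3 without vehicle 1, where 5.92% of all genes were called, and 11 without vehicle 2, where 1.2% were) and 0 in the other 6 classes. Library totals in place of TMM moved the median log2 fold change of all genes to 0.27 in tumour cells, 0.21 in neutrophils, 0.16 in fibroblasts and 0.11 in endothelial cells, and that of the members to −0.52, −0.74, −0.41 and −0.62. With a replicate block on the mouse number 0 members were called in each class. Same-numbered mice deviated together with correlations of −0.114 to 0.316 over the classes. The highest was 0.0836 for number 1, 0.316 for number 2 and 0.128 for number 3. Whether the numbers pair the mice was not tested beyond this. The ribosomal protein share difference between groups kept its sign under each of the 88 alternative values. It missed the threshold in each, which was fixed in advance: the exact permutation test of 3 or 2 mice against 3 cannot go below p = 0.1. Between classes, cells of 2000 to 10000 UMIs gave −1.28 percentage points for endothelial against tumour cells and −2.91 for fibroblasts against tumour cells. Both were then short of the threshold, and macrophages against tumour cells gave 0.605, a change of sign. That window left too few B lymphocytes, T and NK lymphocytes and neutrophils for a value. With the fewer pairs left there, for either share, a pair at the smallest exact p misses the threshold unless most pairs reach that p. With members kept in the clustering, fibroblasts against macrophages passed at −2.41. The small subunit share difference between groups changed sign with equal weight per gene (log2) in B lymphocytes (−0.0733), endothelial cells (−0.0366), fibroblasts (−0.0717) and macrophages (−0.0322). Without the 3 most abundant members of each subunit it changed sign in B lymphocytes (−0.365), T and NK lymphocytes (−0.12), endothelial cells (−0.229), fibroblasts (−0.326) and macrophages (−0.238). Equal weight over members of at least 50 CPM, an alternative chosen after seeing the data, gave −0.0162 in B lymphocytes, and leaving out 1 mouse gave −0.278 to 0.978 there, negative without vehicle 2. Between classes, equal weight over all members changed the sign of the small subunit difference for B lymphocytes against neutrophils (0.0241) and tumour cells (−0.058), T and NK lymphocytes against tumour cells (−0.0972), endothelial cells against fibroblasts (−0.0254) and tumour cells (−0.123), fibroblasts against tumour cells (−0.0978), macrophages against neutrophils (0.00731) and tumour cells (−0.0748), and neutrophils against tumour cells (−0.0821). With the sign kept, the threshold was missed for B lymphocytes against T and NK lymphocytes (0.0392), endothelial cells (0.0652), fibroblasts (0.0398) and macrophages (0.0168), for T and NK lymphocytes against endothelial cells (0.026), fibroblasts (0.000612), macrophages (−0.0224) and neutrophils (−0.0151), for endothelial cells against macrophages (−0.0484) and neutrophils (−0.0411), and for fibroblasts against macrophages (−0.023) and neutrophils (−0.0157). Over members of at least 50 CPM the sign was kept in 21 of 21 pairs, but B lymphocytes against macrophages (0.0128), T and NK lymphocytes against endothelial cells (0.0206), and endothelial cells against fibroblasts (0.026) and tumour cells (0.0671) missed the threshold, while neutrophils now differed from B lymphocytes (−0.15) and macrophages (−0.163). Without the 3 most abundant members of each subunit, B lymphocytes against macrophages (0.638) and endothelial cells against fibroblasts (0.443) missed it, and neutrophils differed from B lymphocytes (−2.84) and macrophages (−3.47). With doublets kept, T and NK lymphocytes against endothelial cells (0.613) missed it, as did endothelial cells against fibroblasts among cells of 2000 to 10000 UMIs (0.914).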
